A study of Papio anubis with 24 samples.

Results

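The 4 spontaneous lesions were compared with the 8 induced lesions in a baboon (Papio anubis) study of endometriosis, in which small RNA was sequenced from lesions and eutopic endometrium. The 12 lesion libraries, of 24 in all, were chosen by the tissue and disease given in the labels, and each came from a different animal. Spontaneous lesions S01, S04, S05 and S07 came from animals in which the disease had arisen naturally. Induced lesions E03, E07, E11, E15, E18, E21, E24 and E27 came from animals inoculated in the peritoneal cavity with menstrual tissue and were taken 15 months after induction. The study describes its baboon lesions as mainly peritoneal, without a breakdown by origin. The exact site of each lesion, the age of the animals, the cycle day of the spontaneous group and the time for which spontaneous disease had been present were not given in the sources read. These factors therefore cannot be told apart from the origin of the disease, and p-values measure the spread between these 12 animals. The comparison asks whether the experimental model and the natural disease differ in their miRNAs. It covered the 467 of 2656 mature miRNAs that reached 2 CPM (a count relative to the total of its library) in at least 2 of the 12 lesions, with 1 precursor, the most abundant, standing for each mature miRNA.

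A miRNA is a short RNA that is cut from a hairpin precursor and guides the Argonaute protein to messenger RNAs, which are then degraded or translated less. Each hairpin has a 5p and a 3p arm, and neighbouring hairpins are often transcribed together as a cluster, so members of a cluster or both arms of a hairpin are not independent measurements. Many miRNAs are largely restricted to a cell type, such as the miR-200 family in epithelium or miR-142 in blood cells, so their level in a biopsy also depends on which cells it holds. Endometriotic lesions hold endometrial glands and stroma together with blood vessels, leukocytes and smooth muscle or fibrotic tissue of the site where they grow.

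Totals were 3527543 to 6650650 counts (median 5056202.5, n = 4) in spontaneous lesions and 4311377 to 7573913 (median 6802387.5, n = 8) in induced lesions, and 603 to 740 and 608 to 732 miRNAs had a count. A level of 3 counts equalled 0.272 to 1.09 CPM, and that floor reflects counting error alone. The composition of the libraries varied widely within both groups. miR-143-3p, a miRNA of smooth muscle and stromal cells, took 49.9% of all counts in S01, 24.5% in S04, 13.9% in S05 and 48.9% in S07, and 17.2% to 71.7% in the induced lesions, where E24 was highest. Values are CPM after TMM scaling, which corrects for such dominant miRNAs and under which the values of 1 library no longer sum to a fixed total, so that miR-143-3p stood at 1264220 in E24. Fold changes are spontaneous over induced lesions.

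No miRNA passed the test between spontaneous and induced lesions. By the quasi-likelihood test of edgeR with p-values adjusted after Benjamini and Hochberg, 0 of 467 miRNAs (0%) had an adjusted p under 0.05, and the smallest adjusted p was 0.563. Before adjustment 37 miRNAs (7.92%) had a p under 0.05, 20 higher in spontaneous lesions (4.28%) and 17 lower (3.64%). The number of calls differed between tools. edgeR-robust, which gives outlying counts of a miRNA less weight and which the study names, called 7 miRNAs (1.50%), and DESeq2 called 1 of 461 (0.217%). An exact permutation test, two-sided and over all 495 assignments of 4 lesions out of 12, gave 21 miRNAs (4.50%) at an unadjusted p under 0.05 and 0 after adjustment. The smallest p it can give is 0.0020202, which adjustment over 467 miRNAs cannot carry past the threshold unless many miRNAs reach it together. The values of the 4 spontaneous and the 8 induced lesions overlapped for all 467 miRNAs, so that 0 (0%) separated the groups.

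The size of the differences was small beside the spread between animals. The absolute log2 fold change had a median of 0.26 over the 467 miRNAs, and its standard error (SE) a median of 0.42. The median SD of log2 CPM was 0.65 among spontaneous and 0.67 among induced lesions, and 250 miRNAs varied more among the spontaneous lesions. The 7 miRNAs called by edgeR-robust were all lower in spontaneous lesions, namely miR-203a-3p, miR-200b-3p, miR-200c-3p, miR-429, miR-375-3p, miR-31-3p and miR-490-3p, and DESeq2's single call was miR-203a-3p. All but miR-490-3p are epithelial miRNAs.

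**Figure D1:**
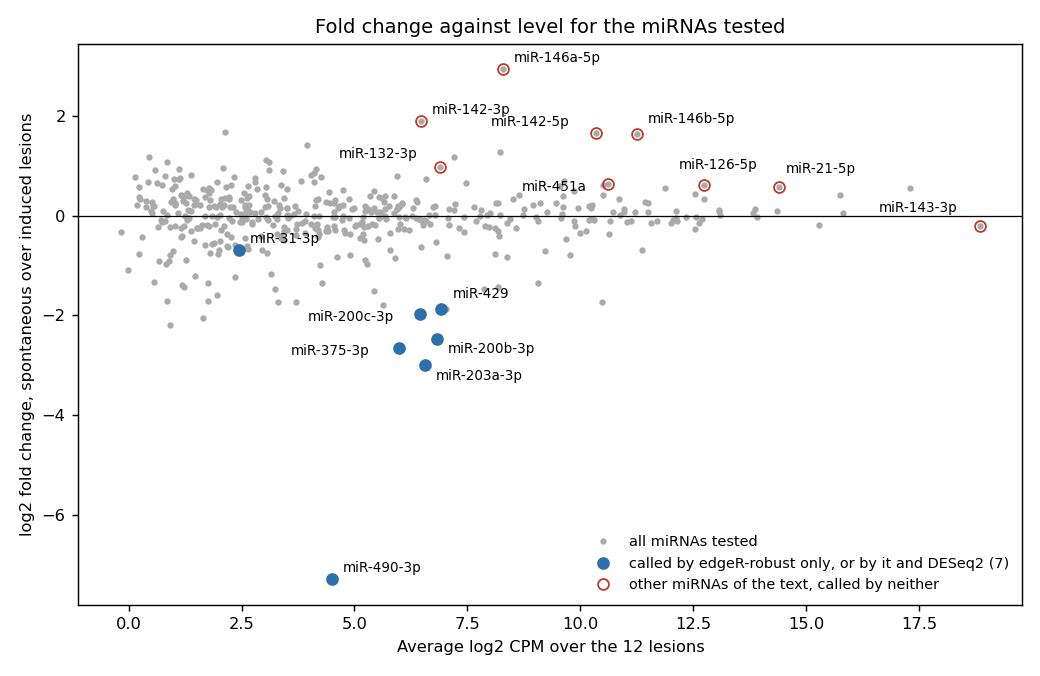
Fold change of each of the 467 miRNAs (log2, spontaneous over induced lesions) against its average log2 CPM over the 12 lesions. Grey points are all miRNAs, filled blue points the 7 called by edgeR-robust, and open red circles other miRNAs described in the text, which neither edgeR-robust nor DESeq2 called; most points lie near 0, miR-146a-5p stands highest at 2.93 and miR-490-3p lowest at −7.30.

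Epithelial miRNAs were lower in spontaneous lesions as a group of point estimates, though none of them passed the quasi-likelihood test after adjustment. Of 23 listed epithelial miRNAs 15 were measured above the filter, and all 15 had a log2 fold change below 0, with a range of −3.0 to −0.70 and a median of −1.74. Over all 467 miRNAs 228 were below 0 and the median was 0.00. Of the 15, 9 had an unadjusted p under 0.05 and 6 were called by edgeR-robust. Over all 467 miRNAs, 17 (3.64%) were lower at that p and 7 (1.50%) were called by edgeR-robust. The 8 listed miRNAs below the filter were miR-205-5p, miR-205-3p and the minor arms of miR-200c, miR-375, miR-203a, miR-183, miR-96 and miR-182. Among the 15, miR-200a-5p, miR-200b-5p and miR-31-3p had at most 4 counts each in S01, S04 and S07. They passed the filter only with the induced lesions, so that their place below 0 is not independent of the filter. Neighbouring members are transcribed together, so that these counts are not of independent miRNAs. In a tissue biopsy, fewer epithelial cells and less of each miRNA per cell cannot be told apart.

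miR-203a-3p, a miRNA of keratinizing and other differentiating epithelium, had the smallest p among the epithelial miRNAs. It stood at 14.5 CPM in S01, 6.91 in S04, 40.9 in S05 and 3.16 in S07, against 28.2 to 326 CPM in induced lesions (median 123). S01, S04 and S07 lay below every induced lesion, and S05 lay within the induced range, above E21, E24 and E27. Spontaneous lesions averaged 16.4 ± 17.0 CPM (SD, n = 4) and induced lesions 132 ± 104 CPM (SD, n = 8), a log2 fold change of −3.0 (SE 0.86, adjusted p = 0.563 by edgeR's quasi-likelihood test). The adjusted p was 0.00415 by edgeR-robust and 0.00389 by DESeq2, while the exact permutation test gave p = 0.0121 before and 0.943 after adjustment. Without any 1 lesion the log2 fold change stayed between −4.16 and −2.66, the first of these without S05.

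The miR-200 family holds miR-200a, miR-200b and miR-429 in 1 cluster and miR-200c and miR-141 in another, and represses the ZEB transcription factors that shut down epithelial genes. miR-200b-3p stood at 28.7 CPM in S01, 6.71 in S04, 69.5 in S05 and 6.55 in S07, against 21.5 to 291 CPM in induced lesions (median 157). miR-200c-3p stood at 19.3, 6.71, 83.5 and 7.23 CPM in S01, S04, S05 and S07, against 17.8 to 209 CPM (median 128). For both, S04 and S07 lay below every induced lesion, S01 lay at the lower end of the induced range and S05 well inside it. Log2 fold changes were −2.47 for miR-200b-3p (SE 0.87) and −1.97 for miR-200c-3p (SE 0.81).

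In the other members too, S05 was the highest spontaneous lesion, followed by S01. miR-200a-3p had 50.2 CPM in S01, 13.6 in S04, 111 in S05 and 12.2 in S07, against 24.2 to 367 CPM in induced lesions (median 152). miR-429 had 33.1, 11.4, 118 and 10.6 CPM, against 22.5 to 269 CPM (median 159). miR-141-3p, the most abundant of the family, had 485, 388, 1217 and 133 CPM, against 255 to 4076 CPM (median 1796), and only S07 lay below the induced range. Without S05 the log2 fold changes were −3.64 for miR-200b-3p, −3.52 for miR-200c-3p, −3.26 for miR-429, −2.92 for miR-200a-3p and −2.58 for miR-141-3p, with adjusted p-values of 0.159 to 0.233 by edgeR's quasi-likelihood test.

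miR-375-3p, which is enriched in glandular and neuroendocrine epithelium, did not follow that order. It stood at 22.2 CPM in S01, 18.4 in S04, 9.87 in S05 and 5.65 in S07, against 6.67 to 242 CPM in induced lesions (median 94.2). All 4 spontaneous lesions lay below the induced median, but only S07 lay below the whole induced range, since E24 had 6.67 CPM. This gave a log2 fold change of −2.66 (SE 0.89, adjusted p = 0.563 by edgeR's quasi-likelihood test). miR-182-5p, of the sensory and epithelial miR-183 cluster, stood at 172, 183, 631 and 72.3 CPM in S01, S04, S05 and S07, against 89.4 to 1287 CPM (median 729), with a log2 fold change of −1.35 (SE 0.70).

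For miR-31, a miRNA of squamous and other epithelium, the rare arm gave different results between tools. miR-31-3p was seen with 1 count in S01, 4 in S04 and 2 in S07 but 111 counts, or 12 CPM, in S05, against 11 to 107 counts, or 2.27 to 9.69 CPM, in induced lesions. S01, S04 and S07 thus lay below and S05 above every induced lesion. For this arm the log2 fold change was −0.70 (SE 0.79) in the quasi-likelihood fit, −2.64 in edgeR-robust and −3.42 without S05. The abundant arm miR-31-5p had 120 CPM in S01, 33.2 in S04, 398 in S05 and 205 in S07, against 124 to 681 CPM (median 273), with a log2 fold change of −0.77 (SE 0.59).

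**Figure D2:**
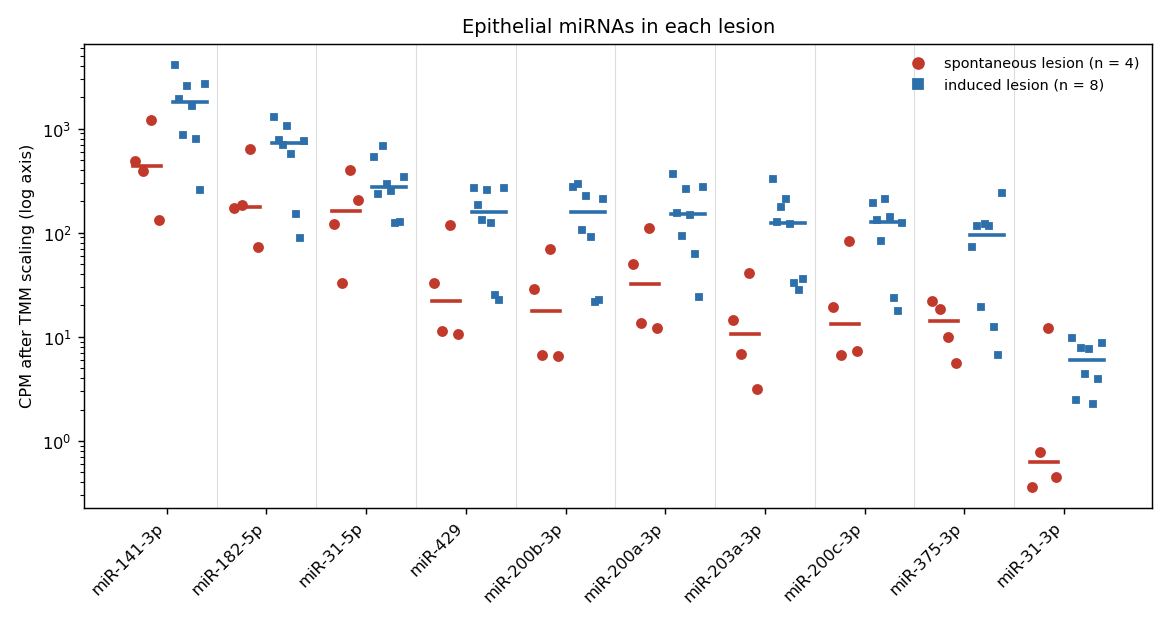
CPM after TMM scaling (log axis) of 10 epithelial miRNAs, with 1 point per lesion, 4 spontaneous (red circles, left, in the order S01, S04, S05, S07) and 8 induced (blue squares, right); horizontal lines are group medians. The spontaneous medians lie below the induced medians for each miRNA shown, and S05 lies among the induced lesions for most of them.

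Summed over the 15 epithelial miRNAs, the level was 959 CPM in S01, 686 in S04, 2749 in S05 and 461 in S07, against 604 to 7516 CPM in induced lesions (median 3649). Induced lesions E24, with 604 CPM, and E21, with 1262 CPM, lay within the range of the spontaneous ones, E21 above S01, S04 and S07. In those lesions miR-143-3p took 71.7% and 52.9% of the counts, and in S01 and S07, which were also low, 49.9% and 48.9%. S04 was low in epithelial miRNAs with only 24.5% of its counts from miR-143-3p. Induced lesions E18 and E07, with 50.7% and 48.6% of their counts from miR-143-3p, had epithelial sums of 3277 and 4021 CPM, near the induced median. The part of muscle or stromal content in the epithelial difference was not tested.

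Which miRNAs edgeR-robust called depended on the lesions included. Without S04 it called 0 miRNAs, with the quasi-likelihood test calling 0 and 10 at an unadjusted p under 0.05. Without S07 it called 2, both higher in spontaneous lesions (miR-146b-5p and miR-18a-5p), and shared 0 with the 7 called in all 12 lesions. Without S05 it called 18, all lower, of which 6 were among the 7, and the additions included miR-141-3p, miR-200a-3p, miR-182-5p, miR-210-3p and 4 red cell miRNAs. Without S01 it called 10, of which miR-132-3p, miR-146b-5p, miR-155-5p and miR-18a-5p were higher. Leaving out an induced lesion gave 3 calls (E15 or E27) to 17 calls (E21), and miR-200c-3p, miR-203a-3p and miR-31-3p were among them each time. DESeq2 called 0 miRNAs without S04 and 17 without S05. The quasi-likelihood test called 0 without each lesion in turn, with a smallest adjusted p of 0.102 without S05 and 0.987 without S04.

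**Figure D3:**
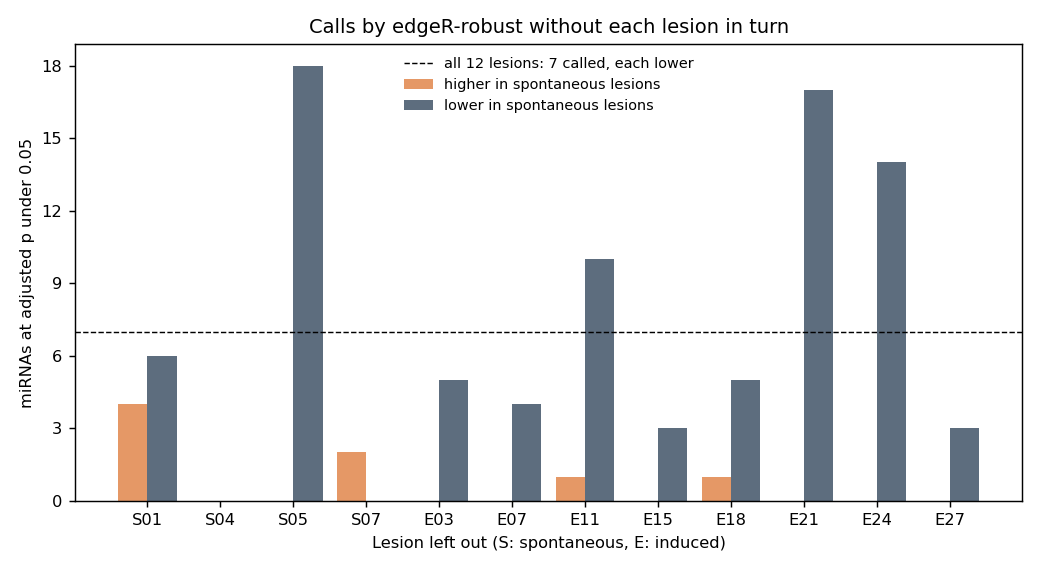
Number of miRNAs at an adjusted p under 0.05 by edgeR-robust when each lesion named on the x axis is left out, 4 spontaneous (S) and then 8 induced (E); orange bars are miRNAs higher and grey bars miRNAs lower in spontaneous lesions, and the dashed line marks the 7 calls with all 12 lesions. The count runs between 0 without S04 and 18 without S05, and only the fits without S01, S07, E11 and E18 called a miRNA higher in spontaneous lesions.

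miRNAs induced by inflammatory signals were mostly higher in spontaneous lesions, without a call by the quasi-likelihood test. Of 11 measured members of this list 10 had a log2 fold change above 0, with a median of 0.94, and 7 had an unadjusted p under 0.05. Over all 467 miRNAs 239 (51.2%) were above 0, and 20 (4.28%) were higher at an unadjusted p under 0.05. miR-146a-5p, which NF-kB induces and which dampens the receptor signalling that activates NF-kB, had the smallest p of all. It stood at 109 CPM in S01, 2496 in S04, 294 in S05 and 85.0 in S07, against 28.3 to 207 CPM in induced lesions (median 86.2). S04 and S05 lay above every induced lesion and S07 below the induced median. Over all 467 miRNAs, at least 2 spontaneous lesions lay above every induced lesion in 54 (11.6%). The log2 fold change of 2.93 (SE 0.74, 95% interval 1.33 to 4.53, adjusted p = 0.563 by edgeR's quasi-likelihood test) was 0.73 without S04. It was 1.24 in edgeR-robust, and DESeq2 gave no adjusted p for this miRNA.

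The related miR-146b-5p was more abundant and was also highest in S04 and S05, which lay above every induced lesion. It stood at 1128 CPM in S01, 9170 in S04, 6084 in S05 and 1536 in S07, against 630 to 3404 CPM in induced lesions (median 1151). Its log2 fold change was 1.64 (SE 0.55, adjusted p = 0.563 by edgeR's quasi-likelihood test) and 1.02 without S04. miR-155-5p, induced in activated macrophages and lymphocytes, stood at 95.2, 504, 239 and 106 CPM in S01, S04, S05 and S07, against 51.4 to 280 CPM (median 79.5). Only S04 lay above the induced range, whose upper end was E11, and the log2 fold change was 1.18 (SE 0.50).

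The hairpins miR-132 and miR-212 are transcribed from 1 locus under the control of CREB, and their 3p arms were highest in S07 instead of S04. miR-132-3p stood at 77.0 CPM in S01, 138 in S04, 235 in S05 and 250 in S07, against 74.8 to 109 CPM in induced lesions (median 91.9). S04, S05 and S07 lay above every induced lesion, and S01 lay near the lower end of the induced range. The log2 fold change was 0.97 (SE 0.29, adjusted p = 0.563 by edgeR's quasi-likelihood test; exact permutation p = 0.0141, adjusted 0.943) and stayed between 0.75 and 1.22 with any 1 lesion left out. miR-212-3p had 12.7, 21.1, 32.8 and 35.7 CPM in S01, S04, S05 and S07, against 7.13 to 21.8 CPM (median 13.3), a log2 fold change of 0.94 (SE 0.34). Its other arm miR-212-5p, named after its values were seen, had 3.63, 7.30, 5.64 and 6.55 CPM, against 1.08 to 4.62 CPM, so that 3 spontaneous lesions lay above the induced range.

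miR-21, the miRNA on which the study centres and which is abundant in fibrotic and inflamed tissue, is also on this list. miR-21-5p stood at 21681 CPM in S01, 31940 in S04, 40180 in S05 and 15910 in S07, against 12738 to 26729 CPM in induced lesions (median 18003). S04 and S05 lay above every induced lesion, as at least 2 spontaneous lesions did in 11.6% of all miRNAs, and S01 and S07 lay inside the range. For miR-21-5p the log2 fold change was 0.56 (SE 0.26, 95% interval 0.01 to 1.12, adjusted p = 0.629 by edgeR's quasi-likelihood test) and 0.26 without S05. The passenger arm miR-21-3p stood at 771, 1016, 1736 and 319 CPM in S01, S04, S05 and S07, against 327 to 825 CPM (median 706). It was above the induced range in S04 and S05 and just below it in S07, with a log2 fold change of 0.59 (SE 0.37).

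**Figure D4:**
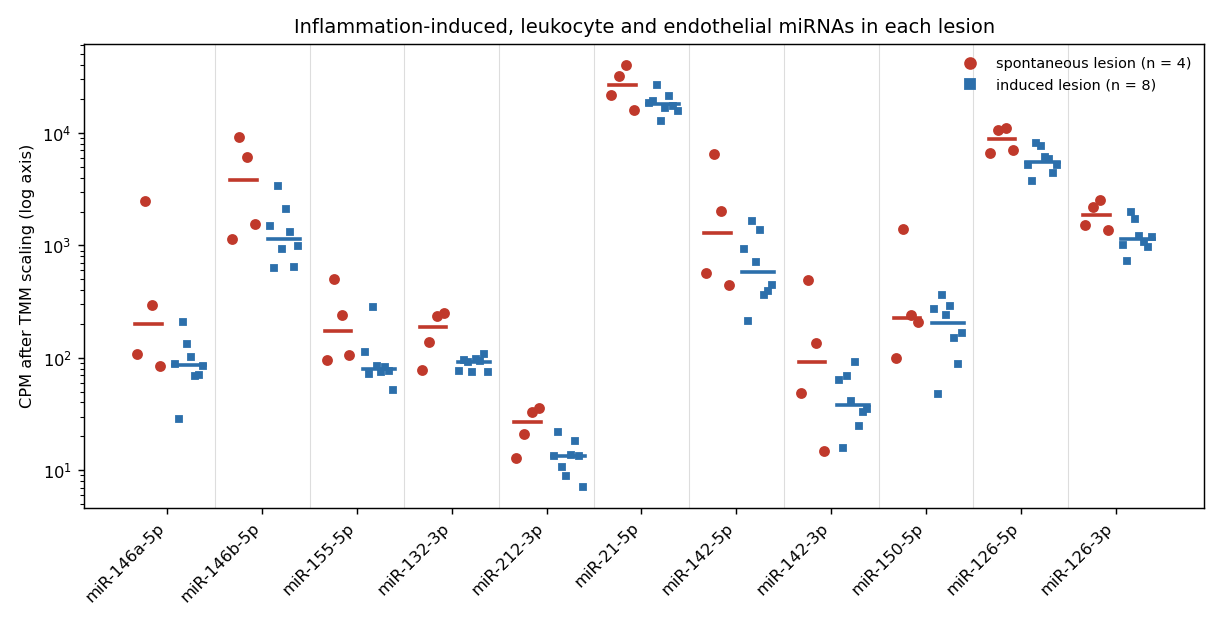
CPM after TMM scaling (log axis) of inflammation-induced, leukocyte and endothelial miRNAs, with 1 point per lesion, 4 spontaneous (red circles, left, in the order S01, S04, S05, S07) and 8 induced (blue squares, right); horizontal lines are group medians. S04 is the highest lesion for miR-146a-5p (2496 CPM) and for the leukocyte miRNAs miR-142 and miR-150, while S07 and S05 are the highest for miR-132-3p.

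The leukocyte list as a sum was highest in the same lesions as miR-146a-5p. Summed over 8 measured members the level was 988 CPM in S01, 9396 in S04, 2913 in S05 and 1034 in S07, against 581 to 2777 CPM in induced lesions (median 1079). S04 stood at more than any induced lesion, S05 just above the highest induced lesion, and the other 2 inside the range. miR-142-5p, a miRNA of nearly all blood cells, had 569 CPM in S01, 6473 in S04, 2023 in S05 and 445 in S07, against 212 to 1635 CPM (median 574). Its log2 fold change was 1.66 (SE 0.66) and 0.43 without S04, and that of its partner arm miR-142-3p was 1.89 (SE 0.68) and 0.51 without S04. miR-150-5p, which is high in mature lymphocytes, had 100 CPM in S01, 1412 in S04, 238 in S05 and 209 in S07, against 47.3 to 358 CPM (median 204). Its log2 fold change was 1.28 (SE 0.63), and −0.15 without S04. The lymphocyte-enriched miR-342-3p had a log2 fold change of 0.66 (SE 0.33), and 0.19 without S04. In contrast miR-223-3p, also on this list, was highest in induced lesions E11 and E18, at 281 and 211 CPM. It stood at 23.3 CPM in S01, 74.2 in S04, 143 in S05 and 18.3 in S07. Of the 8 leukocyte miRNAs 6 had a log2 fold change above 0 (median 0.92), and the part of leukocyte content in the values of miR-146a-5p, miR-146b-5p and miR-155-5p was not tested.

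Both arms of miR-126, made from an intron of EGFL7 in endothelial cells, were also higher in spontaneous lesions at an unadjusted p under 0.05. miR-126-5p stood at 6585 CPM in S01, 10599 in S04, 11162 in S05 and 7068 in S07, against 3760 to 8215 CPM in induced lesions (median 5537). miR-126-3p stood at 1524, 2188, 2518 and 1365 CPM, against 727 to 2001 CPM (median 1133). For both arms S04 and S05 lay above every induced lesion and S01 and S07 above the induced median. Log2 fold changes were 0.61 (SE 0.24) for miR-126-5p and 0.62 (SE 0.28) for miR-126-3p, with an adjusted p of 0.603 each by edgeR's quasi-likelihood test, and leaving out any 1 lesion kept both between 0.40 and 0.75.

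Muscle miRNAs split both groups instead of separating them. Summed over 5 striated muscle miRNAs the level was 1533 CPM in S01 and 1698 in S07 but 87.8 in S04 and 51.7 in S05, against 35.3 to 5683 CPM in induced lesions (median 1080). The cardiac and skeletal muscle miR-133a-3p had 1041 CPM in S01, 58.8 in S04, 32.6 in S05 and 1247 in S07, against 22.8 to 4078 CPM (median 755), and its clustered partner miR-1-3p had 439, 18.2, 11.2 and 401 CPM, against 7.24 to 1448 CPM (median 260). Their log2 fold changes were −0.78 (SE 1.12) and −0.83 (SE 1.18), and without E24 they were 0.02 and −0.12. miR-143-3p itself stood at 640330 CPM in S01, 238490 in S04, 78050 in S05 and 734773 in S07, against 118270 to 1264220 CPM (median 411504), with a log2 fold change of −0.22 (SE 0.65), and 0.15 without E24. The 17 measured miRNAs of smooth muscle and fibroblasts had a median log2 fold change of 0.08, with 9 above and 8 below 0.

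One member of that list, miR-490-3p, which is enriched in smooth muscle, was called by edgeR-robust, and E24 set much of the size of its fold change. edgeR-robust still called it without E24, but not without S04, S07, E15, E18 or E27. It had 2 counts in S01, 0 in S04, 2 in S05 and 0 in S07, against 1017 counts in E24 and 1 to 45 counts in the other 7 induced lesions. S04 and S07 were thus at 0 and S01 and S05 within the lower part of the induced range. The fitted log2 fold change was −7.30 (SE 2.56), −3.73 in edgeR-robust and −3.49 without E24. With at most 2 counts in any spontaneous lesion the size of this difference is poorly determined.

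Red cell miRNAs were set by 1 spontaneous lesion. miR-451a, which is processed in red cell precursors without Dicer, stood at 225 CPM in S01, 57.4 in S04, 7731 in S05 and 204 in S07, against 107 to 3787 CPM in induced lesions (median 997). miR-486-5p, the other abundant red cell miRNA, stood at 673, 621, 23193 and 1305 CPM, against 576 to 19948 CPM (median 4674). S05 lay above every induced lesion and the other 3 spontaneous lesions below both induced medians. The log2 fold change of miR-451a was 0.63 (SE 1.12) with all lesions, −3.14 without S05 and −2.11 in edgeR-robust. That of miR-486-5p was −0.07 (SE 1.05), and −3.04 without S05. The direction for red cell miRNAs therefore depended on S05 and on the method, and neither miRNA was called in all 12 lesions by any tool used.

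**Figure D5:**
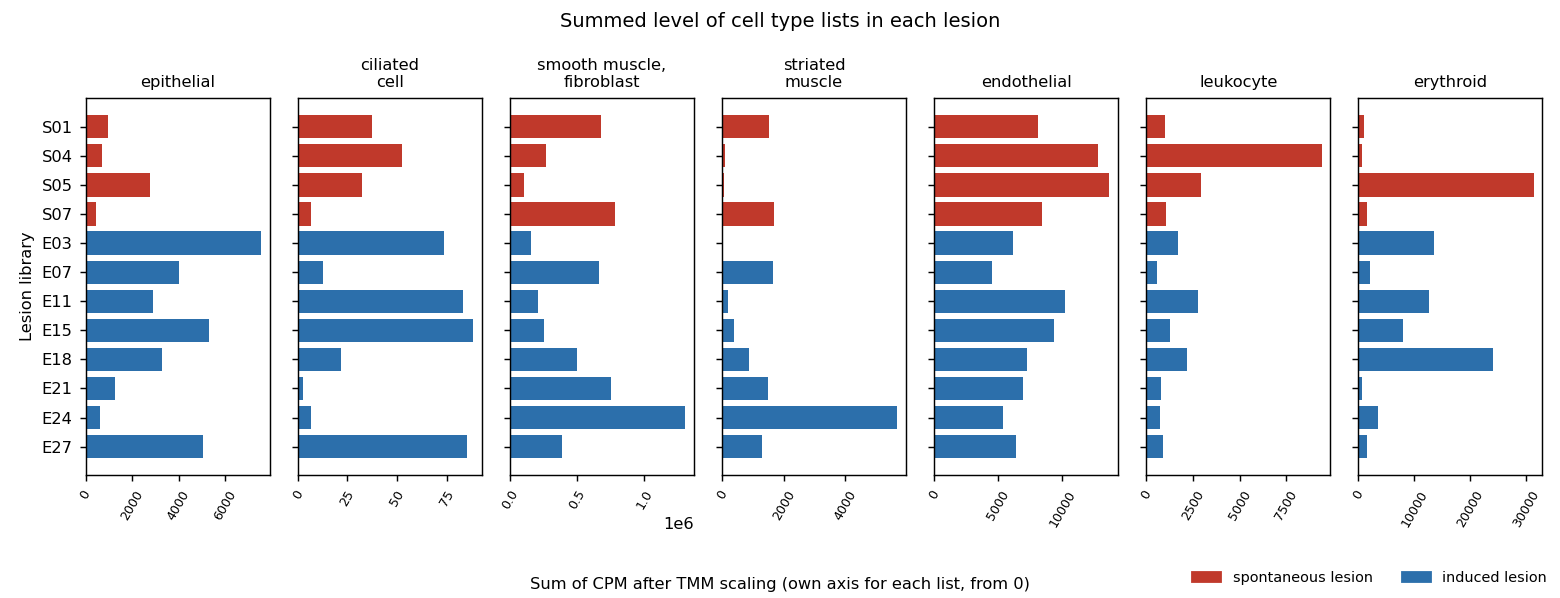
Summed CPM after TMM scaling of 7 cell type lists in each of the 12 lesions, with spontaneous lesions (red) above induced lesions (blue) and a separate axis from 0 for each list. S04 stands out in leukocyte miRNAs (9396 CPM), S05 in red cell miRNAs (31317 CPM) and E24 in muscle miRNAs, while epithelial sums reach 2749 CPM in S05, the highest spontaneous lesion, and 7516 CPM in E03.

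Ciliated cell miRNAs were below 0 in all 6 measured members (median log2 fold change −1.06), at low levels. miR-449b-5p, of a family that drives the formation of motile cilia, had 1 count in S01, 8 in S04, 7 in S05 and 3 in S07, against 1 to 118 counts in induced lesions, and a log2 fold change of −2.06 (SE 0.91). It was the furthest from 0 of the 6, which ran from −2.06 to −0.30. Summed over the 6, the level was 6.78 to 52.5 CPM (median 35.0) in spontaneous and 2.89 to 88.3 CPM (median 47.8) in induced lesions. The groups overlapped throughout. miR-192-5p and miR-194-5p, which are abundant in intestinal and other glandular epithelium and form a cluster, were lower in spontaneous lesions with an upper end set by E27. miR-194-5p stood at 4.0 CPM in S01, 2.17 in S04, 6.40 in S05 and 3.84 in S07, against 4.46 to 40.0 CPM in induced lesions (median 7.36), so that 3 spontaneous lesions lay below the induced range. miR-192-5p stood at 147, 90.4, 118 and 73.2 CPM, against 71.8 to 1046 CPM (median 173), all within the induced range. Log2 fold changes were −1.48 (SE 0.62) for miR-194-5p and −1.47 (SE 0.68) for miR-192-5p, and without E27 they were −0.88 and −0.84. The other measured member of this list, miR-215-5p, went the other way, with a log2 fold change of 0.56. It stood at 2.18 CPM in S01, 2.57 in S04, 33.9 in S05 and 0.904 in S07, against 0.494 to 11.5 CPM in induced lesions.

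miR-204-5p, a miRNA of epithelia such as the retinal pigment epithelium and the choroid plexus, was not on the epithelial list but was among the 12 smallest p-values. It stood at 66.9 CPM in S01, 159 in S04, 131 in S05 and 185 in S07, against 131 to 842 CPM in induced lesions (median 259). All 4 spontaneous lesions lay below the induced median, and S01 below every induced lesion. Its log2 fold change was −1.44 (SE 0.51, adjusted p = 0.563 by edgeR's quasi-likelihood test), and it stayed between −1.63 and −1.14 with any 1 lesion left out.

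The miR-424 and miR-503 cluster on the X chromosome, which represses cell cycle genes, had all 8 measured members below 0 with a median log2 fold change of −0.92. Without E27 that median was −0.31. miR-450b-5p stood at 29.4 CPM in S01, 17.2 in S04, 12.6 in S05 and 18.3 in S07, against 216 CPM in E27 and 20.6 to 43.0 CPM in the other 7 induced lesions. S04, S05 and S07 lay below the induced range. Its log2 fold change was −1.51 (SE 0.65), and −0.74 without E27. The most abundant member, miR-424-5p, had 607, 642, 245 and 188 CPM in S01, S04, S05 and S07, against 162 to 2335 CPM (median 483), with a log2 fold change of −0.71 (SE 0.69) and −0.12 without E27.

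The hypoxia-induced miR-210-3p, a target of HIF-1, was low in 3 spontaneous lesions. It stood at 15.3 CPM in S01, 5.53 in S04 and 5.65 in S07 but 67.8 in S05, against 15.5 to 89.6 CPM in induced lesions (median 41.5). Its log2 fold change was −0.89 (SE 0.67) with all lesions, −1.84 in edgeR-robust and −2.46 without S05 (adjusted p = 0.159 by edgeR's quasi-likelihood test). miR-210-5p, the rare arm, was at 0 to 8 counts in spontaneous and 2 to 29 counts in induced lesions.

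Large families of growth and differentiation lay close to 0. The let-7 family, which represses cell cycle and stem cell genes, had a median log2 fold change of 0.05 over 16 members, and −0.18 when libraries were scaled to totals without miR-143-3p, a scaling that moved the median of all 467 miRNAs to −0.20. The miR-30 family was at −0.09 over 11 members, and −0.33 under that scaling. The miR-17 to miR-92 and paralogous clusters, which promote proliferation, were at 0.26 over 18 members, of which 15 were above 0. Within them miR-18a-5p was the exception in size, with 7.63 CPM in S01, 39.1 in S04, 50.3 in S05 and 6.33 in S07, against 5.67 to 18.5 CPM in induced lesions (median 9.19) and a log2 fold change of 1.41 (SE 0.50). S04 and S05 lay above the induced range and S01 and S07 below the induced median, so that the spontaneous group was split. The miR-29 family, which represses collagen genes, was at 0.08 over 6 members and the imprinted 14q32 cluster at −0.09 over 58 members, and neither held a member at an unadjusted p under 0.05. The 8 profibrotic miRNAs had a median of −0.16 with 4 above and 4 below 0, and the 6 neuronal miRNAs a median of −0.02.

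let-7i-5p was the member of its family with the smallest p. It stood at 3902 CPM in S01, 6477 in S04, 4758 in S05 and 4025 in S07, against 2659 to 3956 CPM in induced lesions (median 3201). S04, S05 and S07 lay above every induced lesion and S01 just below the highest, E03. The log2 fold change was 0.55 (SE 0.19, adjusted p = 0.563 by edgeR's quasi-likelihood test; exact permutation p = 0.00404, adjusted 0.943). let-7 members differ by few bases, so that reads may be shared between them, and how such reads were handled was not given in the sources read.

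The 5 most abundant miRNAs did not differ beyond their spread. After miR-143-3p these were miR-10b-5p, with a log2 fold change of 0.55 (SE 0.40), miR-10a-5p with 0.04 (0.33), miR-26a-5p with 0.40 (0.28) and miR-27b-3p with −0.19 (0.40). miR-10a and miR-10b lie in the HOX gene clusters, and their mature forms differ by few bases, so reads may again be shared. The 95% interval of miR-10b-5p was −0.30 to 1.40 and that of miR-10a-5p −0.67 to 0.75.

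Few miRNAs had most spontaneous lesions outside the induced range. With 4 and 8 lesions, ranks alone would give shares of about the size below, so the miRNAs named here are a description. In 8 miRNAs (1.71%) at least 3 of the 4 spontaneous lesions lay above all 8 induced lesions. Besides miR-132-3p, let-7i-5p and miR-212-5p these were miR-1843, miR-887-3p, miR-98-5p, miR-191-5p and miR-664a-5p, named after their values were seen. miR-1843 had 11.3 CPM in S01, 10.7 in S04, 6.5 in S05 and 8.13 in S07, against 4.11 to 7.16 CPM, a log2 fold change of 0.75 (SE 0.27), and miR-887-3p had 26.2, 16.4, 14.3 and 17.4 CPM, against 8.89 to 14.7 CPM, a log2 fold change of 0.69 (SE 0.25). In the let-7 relative miR-98-5p, in miR-191-5p and in miR-664a-5p the log2 fold changes were 0.50, 0.33 and 0.39. In another 8 (1.71%) at least 3 spontaneous lesions lay below all induced lesions. These were miR-203a-3p, miR-31-3p, miR-194-5p, miR-210-3p and miR-450b-5p, described above, and miR-181c-5p, miR-574-5p and miR-26b-3p, named after their values were seen, with log2 fold changes of −0.48, −0.46 and −0.37.

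Both arms of a hairpin mostly moved together. Of 134 hairpins with both arms measured 85 had log2 fold changes of 1 sign, and the correlation across hairpins, which are not independent replicates, was 0.72. Among the 13 hairpins with an arm past 1 on the log2 scale, 12 had both arms on 1 side of 0.

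The lesions did not sort by origin in their correlations or on the first principal component, while the second placed the spontaneous lesions towards one end. Spearman's rho between libraries was 0.89 to 0.95 (median 0.92) among spontaneous lesions, 0.86 to 0.97 (median 0.94) among induced lesions and 0.88 to 0.97 (median 0.93) between the groups. Each spontaneous lesion was closest to an induced one, S01 and S07 to E21 (rho 0.97 and 0.96) and S04 and S05 to E11 (0.93 and 0.96). The induced lesions outnumber the other spontaneous ones, which by itself makes an induced nearest lesion more likely. The first principal component held 31.9% of the variance, with striated and smooth muscle miRNAs at one end and epithelial and red cell miRNAs at the other, and it placed S01 and S07 beside E21 and E24 and S05 beside E03. On the second, with 15.8% of the variance, S01, S04, S05 and S07 stood at −3.08, −16.1, −1.89 and −8.31. Induced lesion E21 lay among them at −4.03, and the others ran from −1.31 (E07) to 13.4 (E27). miR-146a-5p lay at the low end of this component and miR-490-3p and miR-200b-3p at the high end. The number of miRNAs in which a single spontaneous lesion lay above or below all 8 induced lesions was 45 and 45 in S01, 72 and 68 in S04, 84 and 65 in S05 and 53 and 59 in S07. Among the induced lesions E24 was the most extreme by that measure, highest of the 8 in 115 and lowest in 89 miRNAs.

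The same comparison was made in the eutopic endometrium of these animals, to ask whether any difference was particular to lesions. Between spontaneous and induced eutopic endometrium 0 of 507 miRNAs (0%) passed edgeR's quasi-likelihood test, with 54 (10.7%) at an unadjusted p under 0.05. The difference in lesions minus that in eutopic endometrium, tested with the animal as a block, passed for 0 of 527 miRNAs (0%), with 16 (3.04%) at an unadjusted p under 0.05. No difference was therefore shown to be particular to lesions.

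Side by side, the median log2 fold change of the epithelial list was −1.74 in lesions and −0.63 in eutopic endometrium. That of the ciliated cell list was further from 0 in eutopic endometrium, at −1.06 in lesions and −3.46 in eutopic endometrium. The striated muscle list was at −0.78 in lesions and 3.06 in eutopic endometrium. miR-203a-3p had log2 fold changes of −3.0 and −0.73 in lesions and eutopic endometrium, where it averaged 277 ± 162 CPM in spontaneous disease (SD, n = 4) and 458 ± 159 CPM in induced disease (SD, n = 8), and the difference between both contrasts was −2.33 (SE 0.83, adjusted p = 0.956 by edgeR's quasi-likelihood test). miR-204-5p, at −1.44 in lesions, was at 0.09 in eutopic endometrium, and miR-194-5p and miR-192-5p, at −1.48 and −1.47 in lesions, were at 0.16 and 0.14. In contrast miR-146a-5p was higher in spontaneous disease in both tissues, at 2.93 in lesions and 1.63 in eutopic endometrium, and miR-142-5p at 1.66 and 1.36. miR-132-3p was at 0.97 in lesions and 0.40 in eutopic endometrium, and miR-21-5p at 0.56 and 0.37. The smallest p of the difference belonged to the red cell miRNA miR-144-3p, at 0.19 in lesions and 4.77 in eutopic endometrium (difference −4.07, SE 1.03, adjusted p = 0.768 by edgeR's quasi-likelihood test).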

How the data were processed

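Small RNA libraries (Illumina TruSeq) were made from lesions and eutopic endometrium of 12 baboons. The authors trimmed reads with Trim Galore 0.3.3, quantified them with miRDeep2 against human miRNAs of miRBase 22, tested with edgeR 3.22.5, and deposited raw counts for 2888 combinations of mature miRNA and precursor. A baboon miRNA that differs from the human sequence can be missed. miRNAs are named as in the deposited table without the species prefix.

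These deposited counts were taken up in R 4.3.3, using DESeq2 1.42.0, edgeR 4.0.16 and limma 3.58.1. Of 168 mature miRNAs with several precursors, 15 had precursor totals differing by over 10%, and the most abundant precursor stood for the miRNA. miRNAs that reached 2 CPM in 2 or more of the 12 lesions were tested by edgeR's robust quasi-likelihood fit with TMM factors, the group as the single term and Benjamini-Hochberg adjustment at 0.05. Permutations used mean log2 CPM with a prior count of 1. No deposit was taken for a duplicate, since all pairs within a group differed beyond counting noise (chi-square of 362 or more for each degree of freedom). Lesions and eutopic endometrium were compared with the animal as a block, since the labels give the animal of each library. Scripts were tested on simulated counts.

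Named miRNAs were the 12 smallest p-values at an average log2 CPM of at least 3, calls of edgeR-robust or DESeq2, the 10 largest rises and falls without overlap of the groups (there were 0), the 5 most abundant miRNAs, both arms of miR-21 and up to 4 members of each list. The lesions compared and the lists, taken from general knowledge of tissue and function, were chosen with earlier results of these data known. The gonadal and liver lists had 0 members above the filter. Alternatives were other scaling factors, filters, precursor sums and tools, all 24 libraries in 1 fit, and each lesion left out; edgeR-robust and DESeq2 without each lesion, and the difference between tissues without the block, were added after seeing the data.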

Additional observations from a re-analysis of the deposited data

Results flagged for a closer look

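Single lesions stood far from the rest of their group in 9 of the 118 groups of values checked. The 118 groups were 59 miRNAs named in the text, each in 4 spontaneous and 8 induced lesions. Chance alone flags about 1 in 20 unselected, independent groups. The miRNAs were named partly for their values and include cluster neighbours, so the count cannot be set against that rate. Of the 9 groups flagged, 3 belonged to induced lesion E27. It had 216 CPM of miR-450b-5p, against 20.6 to 43.0 CPM in the other 7 induced lesions, and 98.6 CPM of its cluster neighbour miR-450a-5p, against 7.22 to 21.7 CPM. It also had 1699 CPM of miR-181c-5p, against 698 to 984 CPM. Another 3 belonged to spontaneous lesion S04, which had 2753 CPM of miR-92a-3p, against 4839 to 4936 CPM in the other 3 spontaneous lesions, and 23.1 CPM of the neuronal miR-138-5p, against 2.03 to 2.93 CPM. S04 also had 0 counts of miR-210-5p, against 0.678 to 0.867 CPM, and a count of 0 in S04 allows up to 0.592 CPM, so this gap is within counting error. Spontaneous lesion S01 had 0.363 CPM of miR-9-5p, a single count, against 5.92 to 8.59 CPM. Induced lesion E11 had 280 CPM of miR-155-5p, against 51.4 to 112 CPM, and induced lesion E24 had 2245 CPM of miR-30c-5p, against 916 to 1293 CPM. miR-138-5p had a log2 fold change of 1.68 with all lesions and 0.03 without S04.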

How the results depend on the processing

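The count of 0 miRNAs called by edgeR's quasi-likelihood test was 0 under DESeq2's size factors, library totals, totals without miR-143-3p, no filter, filterByExpr, precursor sums, all 24 libraries in 1 fit (smallest adjusted p 0.0811) and with each lesion left out, and limma-trend also called 0. edgeR-robust called 7 and DESeq2 called 1. With 1 lesion left out, edgeR-robust called 0 to 18 and DESeq2 0 to 17, the lowest without S04 and the highest without S05 in both. Some miRNAs described above changed direction, none of them called with all 12 lesions. miR-10a-5p (0.04) was at −0.14 with library totals, −0.23 with totals without miR-143-3p, −0.0078 with precursor sums, −0.066 in edgeR-robust, −0.071 in limma-trend, −0.071 in the exact permutation, and −0.34 to 0.28 with 1 lesion left out. miR-451a (0.63) was at −2.11 in edgeR-robust, −1.01 in limma-trend and the permutation, and −3.14 to 1.13 with 1 lesion left out. miR-144-3p (0.19) was at −1.96, −1.39 and −3.19 to 0.88 in the same order. miR-486-5p (−0.07) was at 0.39 with library totals and −3.04 to 0.45 with 1 lesion left out. With 1 lesion left out the range was −0.62 to 0.15 for miR-143-3p, −0.45 to 0.0016 for miR-27b-3p, −1.44 to 0.020 for miR-133a-3p, −0.15 to 1.62 for miR-150-5p and −0.18 to 0.11 for miR-92a-3p. Apart from the libraries left out, the cause was not tested. No paired analysis was possible because the 12 lesions come from different animals and share no replicate number. A group of 4 spontaneous lesions, miRNAs at a few counts and the lack of an exact site for each lesion limit what this comparison can show, and a p that misses the threshold does not show that the lesions are alike.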
